A study of Drosophila melanogaster with 11 samples.

Results

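The genes of the mitochondrial ribosome were followed in 2 larval tissues of Drosophila melanogaster taken from dCap-D3 mutant and from wild-type larvae. Every entry of the raw count table whose symbol starts with mRpL or mRpS was taken, which gave 72 genes of 16034 entries. Of these, 46 are named for the large subunit (mRpL) and 26 for the small subunit (mRpS). Large- and small-subunit genes are grouped below by symbol alone, and the place of each protein in the ribosome was not checked. The mutant groups were 3rd instar larvae homozygous for the dCap-D3 allele c07081 in a w background, and the wild-type groups were 3rd instar w1118 larvae, all kept at 25 C. Mutant salivary glands had 3 libraries and wild-type salivary glands had 3, and mutant wing discs had 2 libraries against 3 for wild-type wing discs. A salivary sample pooled 50 tissues and a wing disc sample pooled 150. The protein dCap-D3 belongs to condensin II, which compacts chromosomes, and c07081 is a piggyBac insertion. The effect of the allele and of other differences between the mutant and w1118 strains cannot be told apart. Separate cultures behind the replicates are not named in the labels, so p-values measure only the spread between these samples.

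Mitochondria keep a ribosome of their own, which translates the few messages of the mitochondrial genome into core subunits of the respiratory chain and the ATP synthase. Its RNAs are made inside the organelle, while its proteins are encoded in the nucleus, made in the cytoplasm and imported. Some of these proteins belong to families shared with the bacterial ribosome, and others are found only in mitochondria. In flies, a mutation in the small-subunit protein gene tko gives slow growth and a seizure phenotype, and bonsai encodes another small-subunit protein. Both genes encode mitoribosomal proteins under other names and were not counted among the 72. By the human nomenclature, 45 of the 72 belong to families shared with bacteria and 26 to mitochondria-specific families, and mRpL55 was put in neither class.

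The libraries held 52483062 to 157639534 counts, of which 26206 to 33239 fell on the 72 genes in mutant salivary glands, against 23677 to 27185 in wild-type salivary glands. Mutant wing discs had 208974 to 224159 such counts and wild-type wing discs 230266 to 399568. Cap-D3 itself was at 0.0516, 0.0553 and 0.0664 CPM (counts relative to library size, scaled within a tissue by trimmed means) in mutant salivary glands, against 4.83, 4.36 and 5.21 CPM in wild-type glands, and at 2.92 and 2.61 CPM in mutant discs, against 17.1, 12.9 and 25.9 CPM in wild-type discs. Its log2 fold change was -6.33 ± 0.22 in glands (edgeR, adjusted p = 1.43e-04) and -2.75 ± 0.37 in discs (adjusted p = 0.0912), so mutant discs still held Cap-D3 reads. The 9 salivary gland markers summed to 206455 to 280133 CPM in mutant and 285653 to 359256 CPM in wild-type glands and to at most 650.4 CPM in any disc library. The 10 wing disc markers summed to 1129 to 1185 CPM in mutant and 698.8 to 1923 CPM in wild-type discs. In glands they summed to 61.57 to 67.23 CPM in mutants and 87.58 to 97.88 CPM in wild type. The salivary gland and wing disc sums were thus both lower in every mutant than in every wild-type gland library. Of the single markers in glands, 6 of 9 and 10 of 10 had negative log2 fold changes. Their part in the gland results was not tested. Markers of other tissues were present. Those of fat body summed to 85889 to 135381 CPM in mutant and 70063 to 105751 CPM in wild-type glands, and to 1701 to 4262 CPM in mutant and 1658 to 16105 CPM in wild-type discs. Muscle markers summed to 57.11 to 87.73 CPM in mutant and 73.62 to 83.94 CPM in wild-type glands, and to 80.18 to 84.3 CPM in mutant and 174.6 to 301.7 CPM in wild-type discs. Hemocyte markers summed to 330.9 to 346.8 CPM in mutant and 294.5 to 354.1 CPM in wild-type glands, and to 95.47 to 116.6 CPM in mutant and 158 to 303.3 CPM in wild-type discs. Both sums were thus lower in every mutant than in every wild-type disc library, and their part in the disc results was not tested. In glands the hemocyte sum was mostly Cg25C, vkg and crq (means of 159.8, 87.4 and 79.7 CPM in mutants). By edgeR, Hml and Pxn fell in mutant glands (-1.65 and -1.36, adjusted p = 0.00739 and 0.0256) and NimC1 rose (1.75, 0.0271). In discs NimC1 went against the sum, at 2.74 and 3.13 CPM in mutants, against 0.351, 1.10 and 0.829 CPM in wild type. Gut markers summed to 671.3, 410.6 and 602.3 CPM in mutant glands and to 1495, 11669 and 286 CPM in wild-type glands. LManII made up most of the sum in mutant glands (670.2, 407.6 and 601.1 CPM) and in wild-type replicate 3 (281.5 CPM). Jon65Aiv was at 0.602, 1.52 and 0.714 CPM in mutant glands, against 495, 6132 and 1.78 CPM in wild-type glands. Among salivary libraries, Jon65Aiii, betaTry and alphaTry were likewise high only in wild-type replicates 1 and 2. The part of gut reads in the gland results was not tested. Wild-type wing replicate 3, numbered 59 where its fellows are 28 and 29, stood apart from them as described with the wing comparison.

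The 72 genes summed to similar levels in both genotypes. The sum was 494, 459.7 and 435.2 CPM in mutant salivary glands, against 489.7, 430.4 and 439.3 CPM in wild-type salivary glands. The ranges of the genotypes overlapped. In wing discs the sum was 3470 and 3614 CPM in mutants, against 3672, 4520 and 2348 CPM in wild type, so that both mutant libraries lay inside the wild-type range. As a share of all counts the 72 genes made up 0.0413% to 0.0531% of mutant and 0.0409% to 0.0518% of wild-type salivary libraries, and 0.346% to 0.351% of mutant and 0.253% to 0.424% of wild-type wing libraries. In such bulk samples, fewer cells of a type and less RNA per cell cannot be told apart.

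**Figure D1:**
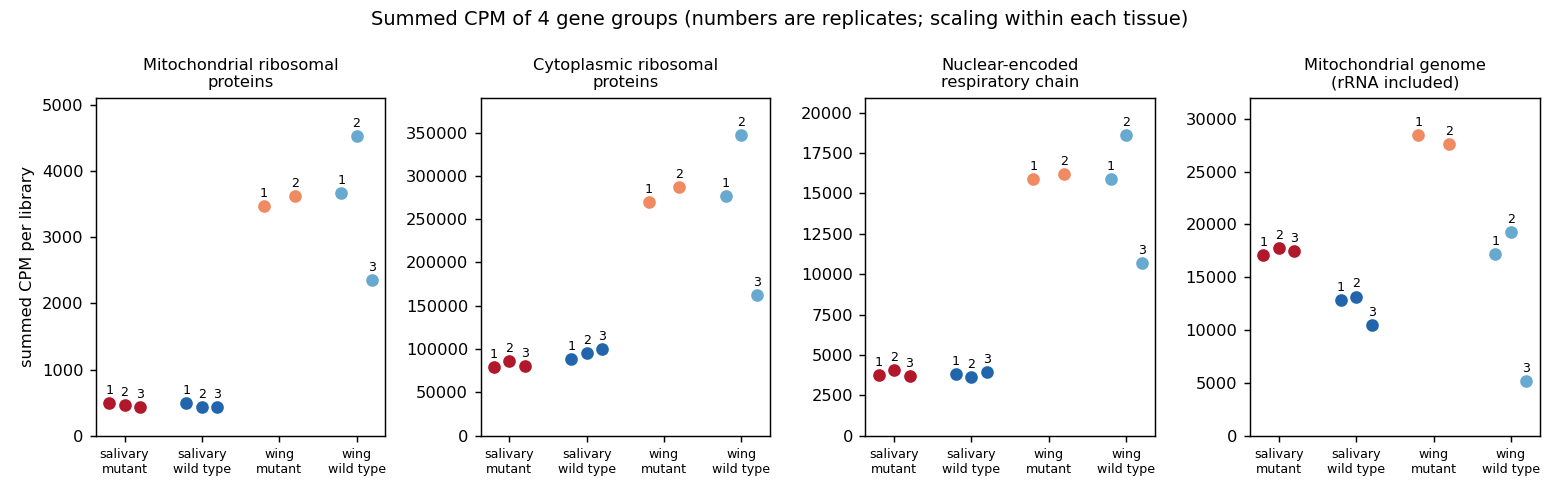
Summed CPM (vertical axis, linear, from 0) of 4 gene groups in each library (the mitochondrial genome with its rRNA), with one point per library, the replicate number above it, and mutant left of wild type in each tissue. The 72 mitoribosomal protein genes overlap between genotypes in both tissues, and wild-type wing replicate 3 is the lowest wing library in every panel.

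Levels between members were compared per kilobase of exon, with all 11 libraries scaled together. The median member stood at 9.41 CPM per kb in mutant and 8.57 in wild-type salivary glands, and at 34.1 in mutant and 36.3 in wild-type wing discs. Cytoplasmic ribosomal protein genes, which supply the general ribosome, had medians of 1482 and 1613 CPM per kb in mutant and wild-type glands. The lowest and the highest member lay 22.3-fold apart in wild-type glands and 7.96-fold apart in wild-type discs. Large-subunit genes had a median of 10.1 CPM per kb in mutant and 8.94 in wild-type glands, close to the 8.90 and 7.96 of small-subunit genes. The medians of the subunits lay close together in mutant and wild-type discs too (35.1 and 36.7 for the large, 33.2 and 33.7 for the small subunit).

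Averaged over the 4 groups, mRpL33, mRpL30, mRpS16 and mRpL34 had the highest levels per kb, and mRpL21, mRpL48, mRpL13 and mRpL35 the lowest. mRpL33 averaged 28.2 ± 0.777 CPM per kb in mutant glands (SD, n = 3), 50.1 ± 3.89 in wild-type glands (n = 3), 63.3 ± 0.978 in mutant discs (n = 2) and 64.1 ± 27.9 in wild-type discs (n = 3). mRpL34, a very small protein shared with bacteria, averaged 13.3 ± 2.48 and 13.6 ± 2.42 in mutant and wild-type glands, and 76.6 ± 1.53 and 79.1 ± 40.6 in mutant and wild-type discs. Among these 4 genes the order in wild-type discs lay within the spread of the libraries, since mRpS16 (81.2 ± 30.0), mRpL34, mRpL30 (73.0 ± 21.1) and mRpL33 differed by less than 1 SD. At the other end, mRpL21 averaged 2.33 ± 0.318 CPM per kb in mutant glands, 2.44 ± 0.30 in wild-type glands, 14.4 ± 0.180 in mutant discs and 15.9 ± 5.03 in wild-type discs. mRpL13 was at 2.71 ± 0.834 in mutant and 3.08 ± 0.545 in wild-type glands, and 35.2% of its exon length lies under exons of CG10602 on the same strand, so that its counts are uncertain. The rank order of the members was much alike between genotypes, with Pearson's r of 0.921 and Spearman's rho of 0.902 in glands and 0.972 and 0.952 in discs (log2 levels, n = 72 genes), and much less alike between wild-type glands and wild-type discs (0.385 and 0.446). These correlations run across genes, which share libraries and gene lengths and are not independent replicates.

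Between mutant and wild-type salivary glands most mitoribosomal genes differed little, and a few passed the test in each direction. All 72 members passed the filter on low counts, and by edgeR's quasi-likelihood test with Benjamini-Hochberg adjustment over 9004 genes 3 members rose and 2 fell at an adjusted p of at most 0.05. Of all genes tested, 5.71% rose and 4.94% fell, so 3 and 2 of 72 are no more than the background. The median log2 fold change, mutant over wild type, was 0.01 over the members and -0.04 over all genes, and 48 members (66.7%) lay within 0.25 of 0, against 45.1% of all genes and 57.1% of those with a mean of at least 5 CPM. The members that rose were mRpL39, mRpS14 and mRpL43, and those that fell were mRpL23 and mRpL33. By subunit, 2 of 46 large-subunit genes rose and 2 fell, and 1 of 26 small-subunit genes rose and none fell. Of the bacterial families 1 of 45 rose and 2 fell, and of the mitochondria-specific families 2 of 26 rose and none fell. An unadjusted p under 0.05 was reached by 10 members, against 29.4% of all genes.

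**Figure D2:**
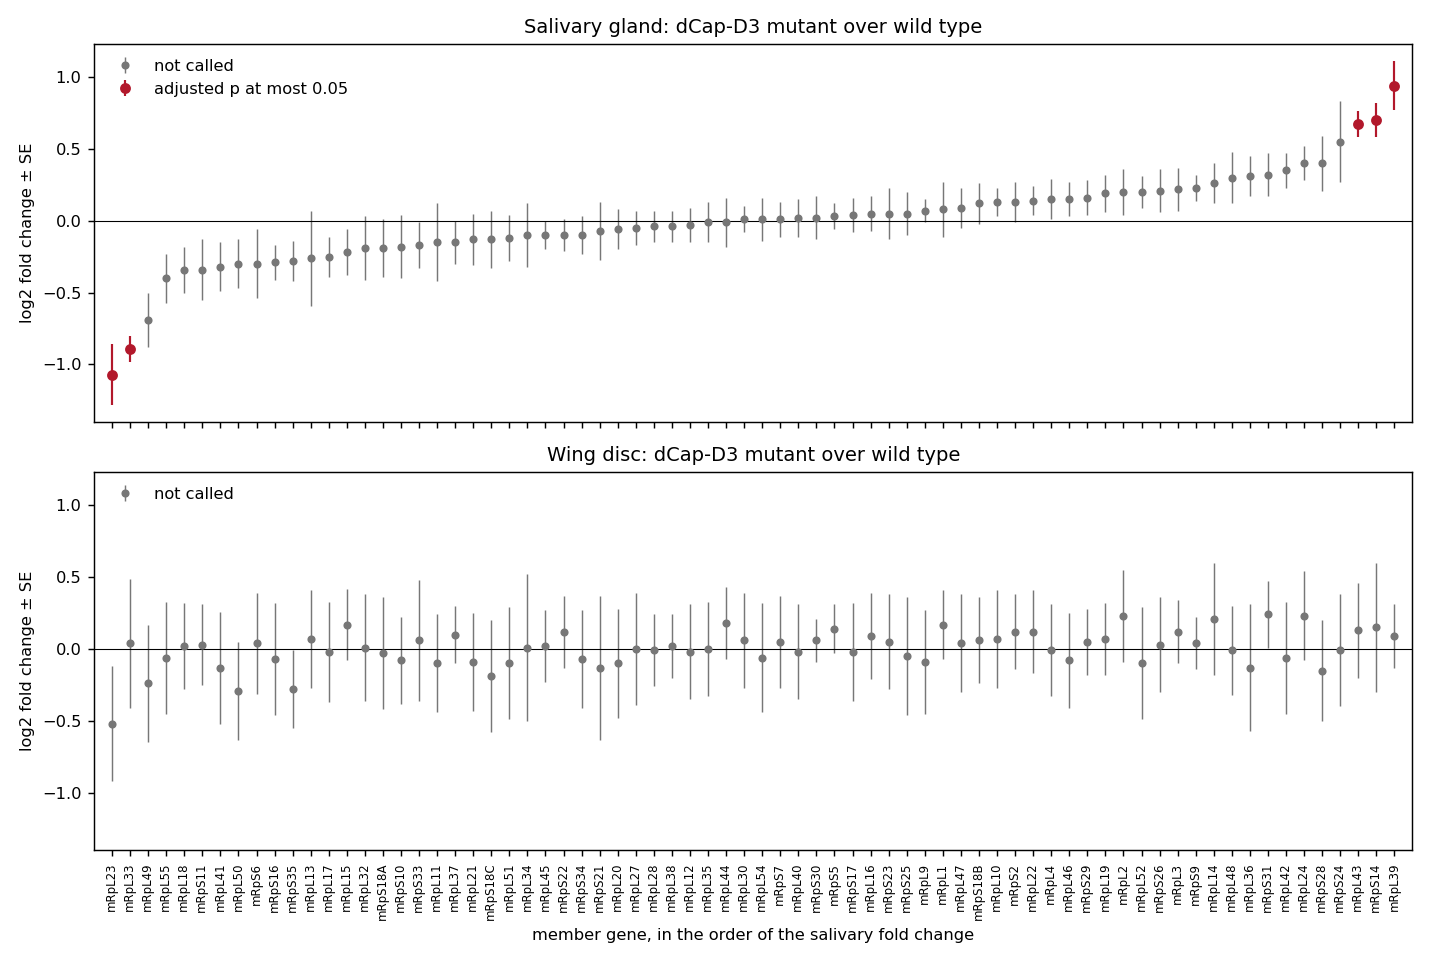
Log2 fold change of each of the 72 genes, dCap-D3 mutant over wild type, with its standard error, in salivary glands (top) and wing discs (bottom), in the order of the salivary value on the horizontal axis. Red points passed an adjusted p of 0.05, which 5 genes did in salivary glands and none did in wing discs, where the standard errors are wider.

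mRpL39 is a mitochondria-specific protein of the large subunit whose sequence resembles threonyl-tRNA synthetase, and its gene lies at 3L:14997981-14999666 on the minus strand (BDGP6). It was at 11.2, 9.42 and 7.97 CPM in mutant glands, against 5.31, 5.36 and 4.23 CPM in wild-type glands, with no overlap between the groups. Its log2 fold change was 0.94 ± 0.17 (SE, adjusted p = 0.0221), a 1.92-fold difference. In discs it was at 82.0 and 82.7 CPM in mutants, against 78.7, 92.3 and 61.4 CPM in wild type, where the groups overlapped (0.09 ± 0.22).

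mRpL43, a mitochondria-specific protein of thioredoxin-like fold in the large subunit, had the smallest SDs of the 5 genes. It was at 7.41, 7.48 and 7.44 CPM in mutant glands, against 4.72, 4.65 and 4.63 CPM in wild-type glands, a log2 fold change of 0.67 ± 0.09 (adjusted p = 0.00848). The gene lies at 2R:23698105-23699014 on the plus strand, with 8.43% of its exon length under sigmar on the other strand. In discs it was at 36.8 and 39.2 CPM in mutants, against 35.7, 46.0 and 22.4 CPM in wild type, with the mutants inside the wild-type range.

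mRpS14, a protein of the small-subunit head that is shared with bacteria, was at 7.20, 8.04 and 6.64 CPM in mutant glands, against 4.77, 4.31 and 4.40 CPM in wild-type glands. The groups did not overlap, and the log2 fold change was 0.70 ± 0.12 (adjusted p = 0.0177). Its gene at X:19479382-19480238 on the minus strand has 32.0% of its exon length under exons of Naa15-16 on the other strand and 3.76% under CG32533 on its own. The salivary libraries were non-directional, so reads on the stretch shared with Naa15-16 cannot be assigned to either gene by strand there.

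Of the members that fell, mRpL33 had the smallest adjusted p. This short protein of the large subunit is shared with bacteria, and its gene at X:4321764-4322231 on the minus strand overlaps no other annotated exon. It was at 6.82, 6.38 and 6.71 CPM in mutant glands, against 11.6, 12.8 and 12.4 CPM in wild-type glands, a log2 fold change of -0.89 ± 0.09 (adjusted p = 0.00342). It ranked 2 of 72 per kb in mutant glands and 1 of 72 in wild-type glands. In discs it was at 35.1 and 36.4 CPM in mutants, against 36.9, 50.2 and 17.6 CPM in wild type, and the groups overlapped.

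mRpL23 encodes the counterpart of the bacterial protein at the exit of the peptide tunnel, and lies at 3L:2372844-2373704 on the minus strand. It was at 2.22, 2.01 and 1.53 CPM in mutant glands, against 4.65, 3.47 and 3.99 CPM in wild-type glands, so that the groups stood apart. The log2 fold change was -1.07 ± 0.21 (adjusted p = 0.0272), which made it the member with the largest change. In discs it was at 45.2 and 47.2 CPM in mutants, against 70.1, 90.8 and 37.3 CPM in wild type. The mutants there lay between wild-type replicate 3 and the other wild-type libraries (-0.52 ± 0.40, adjusted p = 1).

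**Figure D3:**
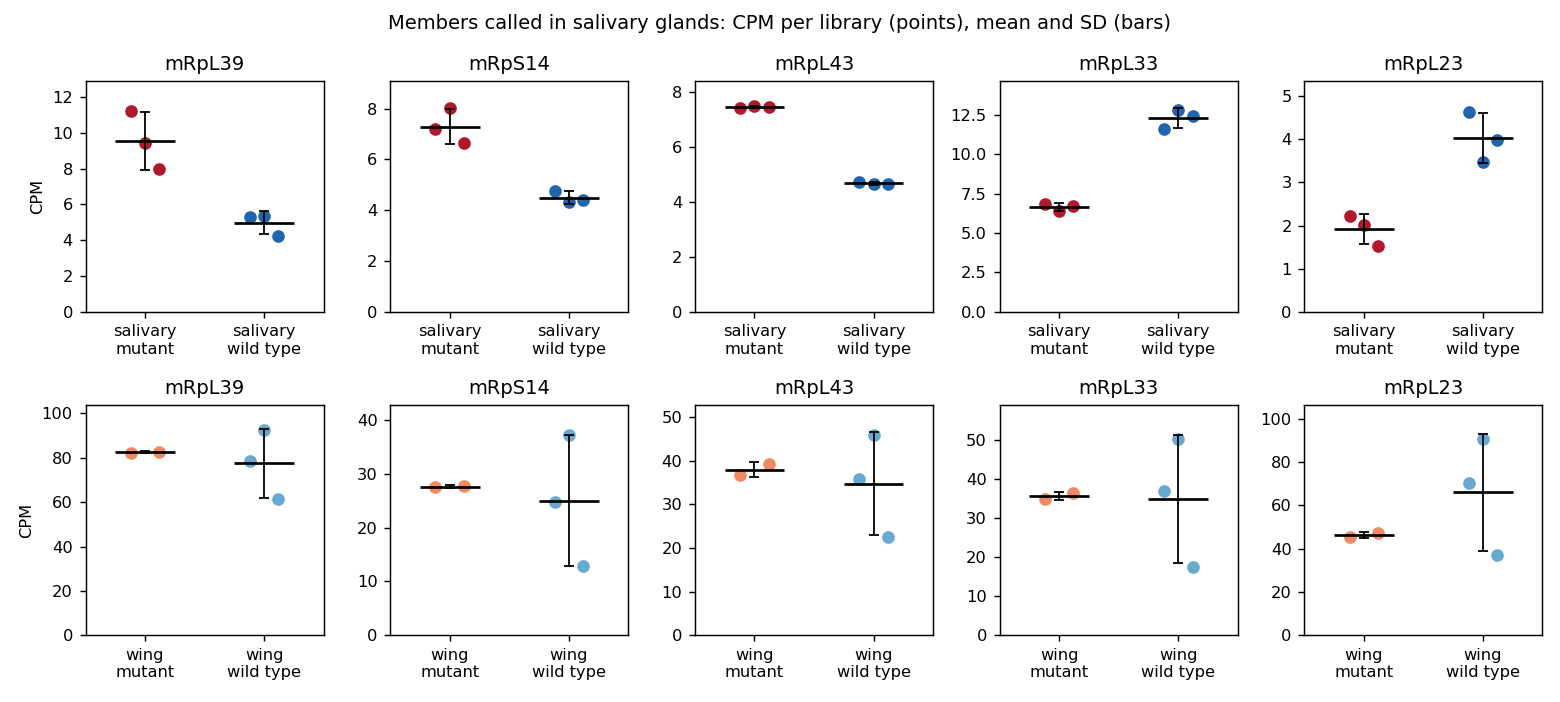
CPM of the 5 genes that changed in salivary glands, with one point per library, the mean and the SD (bars), for salivary glands in the top row and wing discs in the bottom row, mutant left of wild type. The salivary groups do not overlap for any of the 5 genes, and the mutant discs lie inside the wild-type range for each.

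These calls rested on few libraries. mRpL33 and mRpL43 passed in all 6 fits that left out 1 library, with a largest adjusted p of 0.0353 and 0.0470. mRpS14 passed in 3 of 6 and was lost without wild-type replicate 2, wild-type replicate 3 or mutant replicate 2 (adjusted p = 0.0619 to 0.0715). mRpL39 passed in 2 of 6, failing without mutant replicate 2 or any 1 wild-type library (up to 0.0871). mRpL23 passed in 1 of 6, only without mutant replicate 1 (up to 0.107 in the rest). Without wild-type replicate 2, the library richest in gut markers, 1 member rose (mRpL43) and 1 fell (mRpL33), where 1.99% and 1.85% of all genes did. In that fit the log2 fold changes of the other 3 were 0.67 for mRpS14 (adjusted p = 0.0686), 1.0 for mRpL39 (0.0662) and -1.17 for mRpL23 (0.0629). Wild-type replicate 1, with the gut marker Jon65Aiv at 495 CPM, stayed in it, so it does not remove the gut reads. With upper-quartile scaling 2 rose and 2 fell (4.24% and 5.93% of all genes), and mRpL39 was lost at 0.85 (adjusted p = 0.0543). With library totals as the scale 3 rose and 1 fell (5.81% and 3.52% of all genes), and mRpL23 was lost (adjusted p = 0.0660). The model of all 4 groups, with its shared spread, kept mRpL39 alone, so that 1 rose and 0 fell (4.09% and 4.29% of all genes). The part of the salivary gland, wing disc, gut and fat body markers in these results was not tested.

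Among the members with the next largest changes, mRpL49, a mitochondria-specific large-subunit protein, was at 4.49, 3.98 and 3.21 CPM in mutant glands, against 7.31, 5.14 and 6.37 CPM in wild-type glands (-0.69 ± 0.19, adjusted p = 0.0709). mRpL24, whose bacterial counterpart starts the assembly of the large subunit, was at 8.75, 8.38 and 8.12 CPM in mutant glands, against 7.08, 6.47 and 5.54 CPM in wild-type glands (0.40 ± 0.12, adjusted p = 0.0825). Neither pair of groups overlapped. Both passed in DESeq2 (adjusted p = 0.0205 and 0.0206), which called 4 members higher and 3 lower where it called 12.1% of all genes higher and 11.1% lower. DESeq2 was the only 1 of 16 settings, the fits without 1 library included, in which either passed, and the adjusted p reached 0.226 for mRpL49 and 0.237 for mRpL24. mRpS16, a small-subunit protein shared with bacteria, and mRpS35, a mitochondria-specific one, had log2 fold changes of -0.29 ± 0.12 (adjusted p = 0.157) and -0.28 ± 0.14 (0.247). In all, every mutant library lay above every wild-type library for 10 members and below for 7, against 17.4% and 19% of all genes.

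In wing discs no member passed. By edgeR's quasi-likelihood test 0 of 72 members were called, where 0.32% of 9699 genes rose and 0.165% fell, and 0 members had an unadjusted p under 0.05, against 9.53% of all genes. DESeq2 called 0 members, where it called 2.61% of all genes higher and 3.4% lower, and edgeR's likelihood ratio test called 0 as well, where it called 1.98% and 2.79%. The median log2 fold change was 0.01 over the members and -0.03 over all genes, and 69 members (95.8%) lay within 0.25 of 0, against 55.7% of all genes and 70.2% of those with a mean of at least 5 CPM. That count rested on the wild-type libraries together, since 39 members (54.2%) lay within 0.25 of 0 without wild-type replicate 2 and 35 (48.6%) without replicate 3, against 43.2% and 56.6% of all genes. The median standard error of the members was 0.33, and the wild-type libraries differed among themselves. The CPM ranges overlapped for all 72 members, while 14.4% of all genes lay higher and 11.7% lower in every mutant library.

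The largest positive values in discs belonged to mRpS31, mRpL24, mRpL2 and mRpL14. mRpS31, a mitochondria-specific protein of the small subunit, was at 56.5 and 58.5 CPM in mutants, against 50.1, 58.4 and 37.4 CPM in wild type (0.24 ± 0.23). mRpL2, the large-subunit protein next to the peptidyl transferase centre in bacteria, was at 76.0 and 80.8 CPM in mutants, against 69.6, 87.5 and 43.9 CPM in wild type (0.23 ± 0.32). Each of these 4 values came out at most 0.06 when wild-type replicate 3 was left out. The largest negative values were those of mRpL23, mRpL50, mRpS35 and mRpL49. mRpL50, a mitochondria-specific large-subunit protein, was at 33.4 and 36.4 CPM in mutants, against 47.3, 53.8 and 26.6 CPM in wild type (-0.29 ± 0.34), and mRpS35 was at 43.3 and 46.7 CPM, against 55.5, 69.1 and 39.8 CPM (-0.28 ± 0.27).

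Wild-type replicate 3 was the lowest wing library for 71 of 72 members, the exception being mRpS5, and wild-type replicate 2 was the highest for 68. For 44 members both mutant libraries lay between replicate 3 and the other wild-type libraries. The shares of all genes in these orders were not counted, so none of these counts can be read as particular to the members. Without replicate 3 the median member was at -0.26 (all genes 0.00), and without replicate 2 it was at 0.24 (all genes 0.01), so the direction of the members as a group depended on which wild-type library was kept. The gap between replicate 3 and the mean of replicates 1 and 2 went with gene length. The CPM ratio had a median of 0.473 in the 24 shortest members (327 to 704 bp of exon), 0.540 in the 24 of middle length (707 to 924 bp) and 0.668 in the 24 longest (932 to 2078 bp). Across the 72 genes the ratio followed log2 exon length with Pearson's r of 0.853 and Spearman's rho of 0.858, and across 6848 genes of at least 5 CPM with 0.872 and 0.914. All genes of the same lengths had median ratios of 0.488, 0.569 and 0.768 in these 3 classes.

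**Figure D4:**
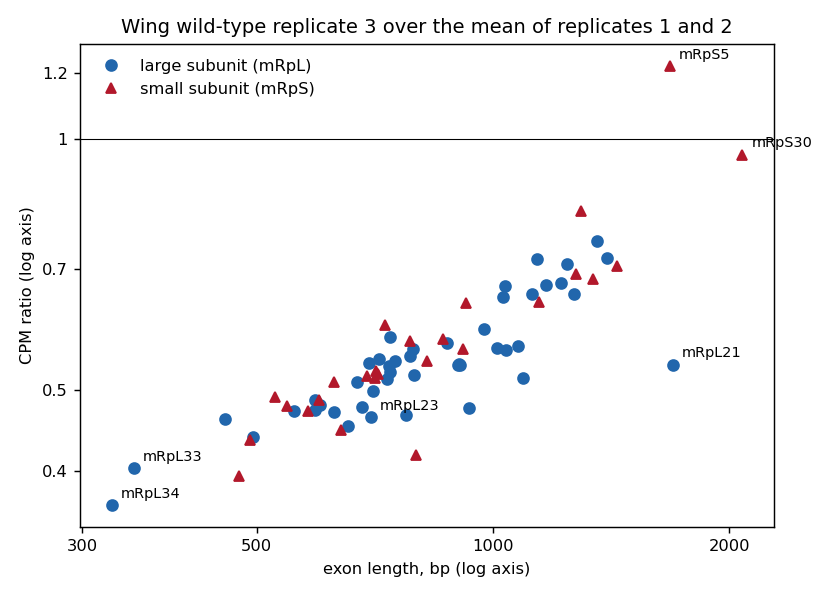
CPM in wild-type wing replicate 3 divided by the mean of wild-type wing replicates 1 and 2 (vertical axis, log scale) against exon length (horizontal axis, log scale), one point per member. Ratios run from 0.365 for mRpL34, the shortest, to 0.959 for mRpS30, the longest, and only mRpS5 lies above 1.

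A fit in which exon length was an offset in each library, added after the data had been seen, lowered the biological coefficient of variation in discs to 0.270 from 0.374, and the median standard error of the members to 0.07. It still called 0 members, where it called 1.48% of genes higher and 1.09% lower. In the same fit 7 of 72 members had an unadjusted p under 0.05, a smaller share than the 1820 of 9699 genes tested. The 3 nearest the threshold were mRpL23 (-0.53, adjusted p = 0.0507), mRpS35 (-0.35, 0.0834) and mRpL50 (-0.33, 0.0868), all lower in mutants. For mRpL23 the adjusted p ran from this value to 1 over the other settings. In glands the same fit called 3 members higher and 2 lower, where it called 5.42% and 5.38% of genes.

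The difference between the tissues in the effect of the genotype was tested directly, as the salivary minus the wing log2 fold change in 1 model of all 11 libraries. No member passed by edgeR's quasi-likelihood test, where 0.858% of 10835 genes did, and 2 members had an unadjusted p under 0.05, against 13% of all genes. DESeq2 called 0 members, where it called 5.75% of all genes. mRpL39 had a difference of 0.99 ± 0.26 (adjusted p = 0.129) and mRpL43 of 0.67 ± 0.29 (0.381), both more positive in glands, and mRpL33 had -0.81 ± 0.42 (0.468). mRpS24, mRpS14 and mRpS28 followed on the positive side with 0.68 ± 0.42, 0.67 ± 0.43 and 0.67 ± 0.39, and mRpL23, mRpL49 and mRpL15 on the negative side with -0.44 ± 0.41, -0.33 ± 0.42 and -0.26 ± 0.26. Of the exon length of mRpS24, 55.3% lies under TBC1d7 on the other strand. With exon length as an offset, mRpL43 passed at 0.61 (adjusted p = 0.0219, against up to 0.726 in other settings) and mRpL33 at -0.81 (0.00942, against up to 0.827), where that fit called 2.46% of genes in either direction. A difference between the tissues was thus called for these genes with the offset and not without it.

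The balance among the members was described as each gene's share of the summed member CPM, a measure chosen after the values had been seen, which takes out any change common to all of them in a library. In both tissues, the shares of mRpL14, mRpL22, mRpL24, mRpL43, mRpS18B and mRpS31 were higher in every mutant than in every wild-type library, and those of mRpL23, mRpL50 and mRpS35 were lower. These are 6 and 3 of 72. Of 8304 genes divided by the same sum, 2.64% were higher and 3.58% lower in both tissues. The sum comes from the members themselves, so the division takes out their common swings between libraries and not those of other genes. These percentages are therefore not a like background, and no excess among the members can be read from them. Before the division, the CPM ranges in discs overlapped for all 72 members. mRpL23 had the widest gap. It made up 0.449%, 0.436% and 0.351% of the sum in mutant glands, against 0.949%, 0.807% and 0.908% in wild-type glands, and 1.30% and 1.31% in mutant discs, against 1.91%, 2.01% and 1.59% in wild-type discs. mRpL24 made up 1.77%, 1.82% and 1.87% in mutant glands, against 1.45%, 1.5% and 1.26% in wild-type glands, and 1.63% in both mutant discs, against 1.38%, 1.41% and 1.39% in wild-type discs. For the other 7 genes the ratio of mutant to wild-type mean shares lay between 0.791 and 1.56 in glands and between 0.805 and 1.18 in discs. Across the 72 genes, the salivary and wing log2 fold changes had a Pearson's r of 0.50 and a Spearman's rho of 0.397. They rest on separate libraries, but this is a description across genes that share each tissue's libraries. Both also rose with log2 exon length (Pearson's r of 0.238 and Spearman's rho of 0.247 in glands, 0.353 and 0.485 in discs). The part of length in their correlation was not tested.

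Wild-type salivary glands had less mitoribosomal message relative to other genes than wild-type wing discs. By edgeR's quasi-likelihood test 68 of 72 members were lower in glands and 1 was higher, where 42.4% of 10835 genes were lower and 32.7% higher. Every salivary library lay below every disc library for 68 members and above for 1, against 43% and 30.9% of all genes. The median log2 difference, salivary over wing, was -2.07 over the members and -0.31 over all genes. Scaling moved both values, to -1.76 and 0.01 with DESeq2's scaling and to -3.22 and -1.48 with library totals. With exon length as an offset they were -1.20 and 0.20. The offset takes out any difference between libraries that follows exon length, whatever its source. In each of these fits the members lay below all genes. Library totals gave 71 members lower and 0 higher (60.5% and 20.4% of all genes), and the offset gave 65 lower and 4 higher (35.8% and 43.5%). Cytoplasmic ribosomal protein genes had a median of -0.36 (1 of 88 higher, 23 lower) and nuclear genes of the respiratory chain -0.67 (1 of 72 higher, 43 lower), and both medians were above 0 with the exon-length offset (0.52 and 0.19). Other nuclear genes for mitochondrial proteins were also lower in glands. Genes for expression of the mitochondrial genome had a median of -2.03 (0 of 14 higher, 13 lower), translation factors -1.72 (0 of 11 higher, 10 lower), mitochondrial tRNA synthetases -1.55 (1 of 16 higher, 15 lower) and import and chaperone genes -1.23 (0 of 15 higher, 14 lower). Regulators of mitochondrial biogenesis had -0.29 (3 of 10 higher, 4 lower). With the offset, genes for expression of the mitochondrial genome had a lower median (-1.56) than the members. In wild-type glands 10 genes held 45.9% to 48.0% of all counts, against 7.62% to 8.92% in wild-type discs. Salivary libraries were non-directional and wing libraries directional, so tissue and library kind cannot be told apart.

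The 8 members with the smallest adjusted p were mRpS30, mRpL39, mRpL44, mRpL37, mRpS10, mRpL48, mRpS11 and mRpL15, all lower in glands. mRpS30, a mitochondria-specific protein related to mRpL37, averaged 12.6 ± 1.51 CPM in wild-type glands and 70.9 ± 2.59 CPM in wild-type discs (SD, n = 3 each), with all libraries scaled together, a log2 difference of -2.49 ± 0.15. mRpS10, a small-subunit protein shared with bacteria, averaged 4.38 ± 0.578 CPM in glands and 40.7 ± 10.4 CPM in discs, a 9.29-fold lower level in glands. mRpL44, which carries an RNase III-like domain, averaged 6.36 ± 1.17 CPM in glands and 40.5 ± 7.29 CPM in discs. In none of the 8 did the groups overlap.

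**Figure D5:**
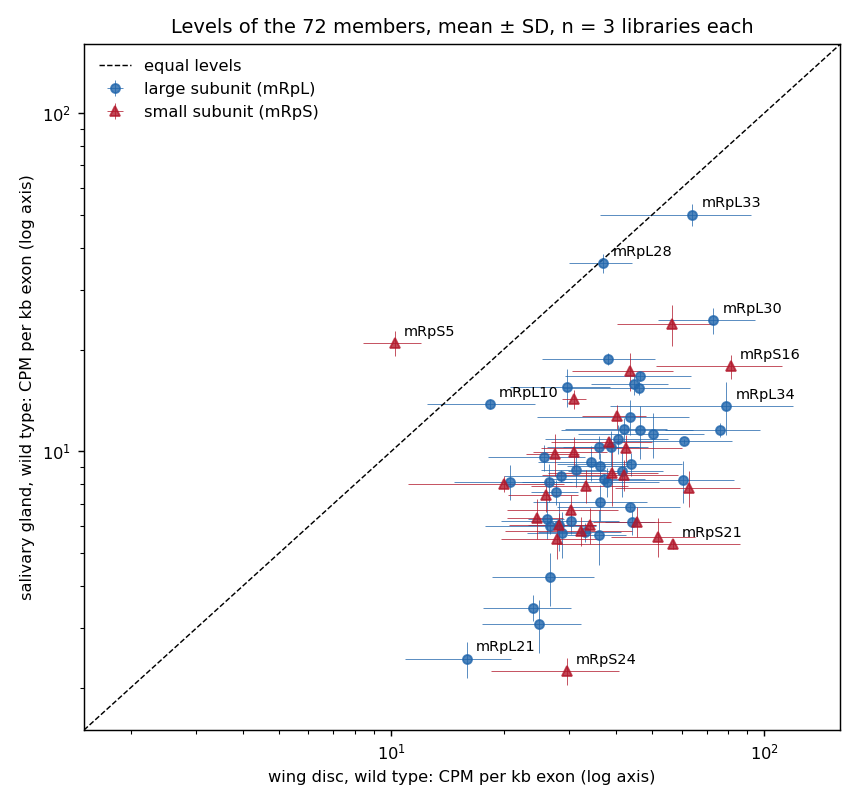
Mean level per kb of exon in wild-type salivary glands (vertical axis, log scale) against wild-type wing discs (horizontal axis, log scale), in CPM per kb, for the 72 genes, with the SD of 3 libraries on each axis and a dashed line of equal levels. Only mRpS5 lies above the line, and mRpL28, mRpL10 and mRpL33 are the nearest below it.

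mRpS5 went the other way. It encodes a small-subunit protein shared with bacteria, which lies near the path of the entering message, and its gene is at 3L:24537236-24543534 on the plus strand with no overlapping exon. It stood at 18.9, 21.6 and 22.2 CPM per kb in wild-type glands, against 9.09, 9.22 and 12.3 CPM per kb in wild-type discs, a log2 difference of 1.03 ± 0.15 (adjusted p = 2.08e-04). It ranked 5 of 72 in wild-type glands and 72 of 72 in wild-type discs. With library totals as the scale its difference was -0.14 (adjusted p = 0.393) and it was no longer called. Mutant glands, at 20.7, 22.9 and 23.0 CPM per kb, overlapped wild-type glands, and mutant discs, at 10.7 and 10.5, lay inside the range of wild-type discs.

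The 3 members without a call, named after their values were seen, were mRpL28 (-0.04 ± 0.17, adjusted p = 0.840), mRpL33 (-0.35 ± 0.28, 0.270) and mRpL10 (-0.41 ± 0.21, 0.103). mRpL28 and mRpL33 encode large-subunit proteins shared with bacteria, and mRpL10 encodes the base of the flexible stalk. mRpL28 was at 33.3, 37.1 and 37.6 CPM per kb in wild-type glands, against 37.3, 43.9 and 29.8 CPM per kb in wild-type discs, and mRpL33 at 45.9, 50.9 and 53.5, against 67, 90.4 and 34.9. Both groups overlapped. The sign of these 3 depended on the fit. With the exon-length offset they were higher in glands (0.75, 0.63 and 0.50, adjusted p = 6.78e-05, 5.23e-05 and 0.00135). With library totals they were lower (-1.21, -1.52 and -1.57).

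Genes that work beside the mitochondrial ribosome were read against the same background of 5.71% of all genes higher and 4.94% lower in mutant glands. Of 11 translation factors, 16 mitochondrial tRNA synthetases and 13 genes for expression of the mitochondrial genome that passed the filter in glands, 0 were called in either direction by edgeR's quasi-likelihood test, with medians of -0.13, 0.06 and -0.20 and with 0, 1 and 3 genes at an unadjusted p under 0.05. DESeq2 called 0, 0 and 2 of them. EfTuM, the mitochondrial elongation factor Tu, was at 27.9, 25.4 and 22.7 CPM in mutant glands, against 28.2, 22.0 and 23.8 CPM in wild-type glands (0.04 ± 0.13). TFAM, which packages mitochondrial DNA, was at 138.1 and 146.7 CPM in mutant discs, against 144.5, 160.7 and 101.8 CPM in wild-type discs (0.07 ± 0.24). Neither gene separated the genotypes. Of 14 genes for import and chaperones, 1 rose in glands, Hsc70-5, the mitochondrial Hsp70, at 105.3, 87.8 and 65.7 CPM in mutants, against 50.1, 42.1 and 47.3 CPM in wild type (0.89 ± 0.19, adjusted p = 0.0379). That call was lost with upper-quartile scaling, library totals and the exon-length offset (adjusted p = 0.0756, 0.0577 and 0.0634) and in 5 of 6 fits without 1 library (up to 0.131). Of 10 regulators of mitochondrial biogenesis and stress, 1 rose, crc, the fly ATF4, at 636.3, 646.9 and 665.5 CPM in mutant glands, against 474.2, 428.1 and 449.4 CPM in wild-type glands (0.53 ± 0.09, adjusted p = 0.0213). The call on crc was lost in edgeR's likelihood ratio test (adjusted p = 0.0760) and in 5 of 6 fits without 1 library (up to 0.0963). In discs crc was at 1413 and 1391 CPM in mutants, against 937.6, 969 and 1011 CPM in wild type, which did not overlap but did not pass (0.53 ± 0.14, adjusted p = 0.305), except in DESeq2 (0.51, adjusted p = 0.00613).

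The genes tko and bonsai, which stand outside the naming rule, did not pass in either tissue. tko was at 4.14, 3.11 and 2.54 CPM in mutant glands, against 4.85, 3.98 and 4.72 CPM in wild-type glands (-0.47 ± 0.21, adjusted p = 0.198). bonsai had log2 fold changes of 0.11 ± 0.16 in glands and 0.05 ± 0.25 in discs. Both were lower in wild-type glands than in wild-type discs (-2.66 ± 0.31 and -2.10 ± 0.18, adjusted p = 5.21e-05 and 7.48e-06). The value of bonsai lay near the member median of -2.07, and that of tko below the lower quartile of the members, -2.47.

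Of the cytoplasmic ribosomal protein genes 0 of 84 rose and 7 fell in mutant glands, with a median of -0.21, and 78 of the 84 values were negative. These counts depended on the test. DESeq2 called 2 higher and 27 lower, where it called 12.1% and 11.1% of all genes, and the likelihood ratio test called 0 higher and 1 lower, where it called 7.25% and 8.39%. Nuclear respiratory chain genes had 2 of 67 higher and 1 lower, with a median of -0.03, and DESeq2 called 6 higher and 7 lower. The mitochondrial genome carries the messages that the mitochondrial ribosome translates and the RNAs of that ribosome. Of its 12 entries tested 9 rose and 0 fell in mutant glands, with a median of 2.12, and of 13 in discs 2 rose and 0 fell, with a median of 1.57. In discs DESeq2 called 6 higher, the likelihood ratio test 5 and the exon-length offset 5, each with 0 lower. One entry is mt:lrRNA, the large ribosomal RNA, which is part of the mitochondrial ribosome and is not translated. It was at 11639, 11450 and 10799 CPM in mutant glands, against 12179, 12584 and 10022 CPM in wild-type glands (-0.04 ± 0.11, adjusted p = 0.849), and at 17731 and 17382 CPM in mutant discs, against 15271, 17263 and 4842 CPM in wild-type discs (0.49 ± 0.56). The groups overlapped in glands. The other 12 entries, the messages, summed to 5428, 6349 and 6679 CPM in mutant glands, against 704.2, 595.9 and 497.9 CPM in wild-type glands, and to 10714 and 10258 CPM in mutant discs, against 1924, 2052 and 333.6 CPM in wild-type discs. With mt:lrRNA the entries summed to 17067 to 17799 CPM in mutant glands, against 10520 to 13179 CPM in wild-type glands, and to 28445 and 27640 CPM in mutant discs, against 17196, 19315 and 5176 CPM in wild-type discs. Neither sum overlapped between genotypes in either tissue. mt:CoII, for subunit II of cytochrome c oxidase, was at 590, 568.5 and 628.1 CPM in mutant glands, against 0.811, 0.745 and 0.505 CPM in wild-type glands (9.76 ± 0.26, adjusted p = 5.41e-05), and at 2232 and 2181 CPM in mutant discs, against 3.91, 4.39 and 0.976 CPM in wild-type discs (9.49 ± 0.83, adjusted p = 0.0339). mt:CoI was at 2203, 2322 and 2330 CPM in mutant glands, against 119.5, 107.1 and 95.7 CPM in wild-type glands (4.41 ± 0.13, adjusted p = 5.41e-05). Whether both stocks carry the same mitochondrial genome is not stated in the labels.

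In the authors' deposited table for salivary glands, 1 member, mRpL39, was higher at a false discovery rate of at most 0.05 and 2, mRpL23 and mRpL33, were lower. The authors' deposited table gave log2 fold changes of 0.95, -1.04 and -0.93 for these genes (false discovery rates of 0.0434, 0.0302 and 0.0433), and 0.64 and 0.68 for mRpL43 and mRpS14 (0.243 and 0.220). The authors' deposited table for wing discs listed 0 of 72 members at that rate, with mRpL23 the nearest (-0.55, false discovery rate 0.103). The share of the 11021 genes in each table at that rate was not counted, so these counts have no background beside them.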

How the data were processed

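RNA was read as 50 bp paired ends. Tools listed in the submitters' processing notes are HTSeq 0.6.1, TopHat2 2.0.8b, BWA, Trim Galore 0.3.3, Picard 1.119 and FastQC 0.11.3, with BDGP6 as the build. Whether counting used strand, and how it treated shared reads, is not stated. The deposited raw counts per gene were used as they stood. The authors also deposited, per the file headers, log2 fold changes and log2 mean CPM, a likelihood ratio score and p-values with false discovery rates. Of the entries, 176 that name no gene (0.000201% to 0.000607% of counts) were left out.

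Each tissue was fitted alone in edgeR 4.0.16 (R 4.3.3; TMM scaling; filterByExpr with minimum count 10 and total 15; robust, legacy quasi-likelihood F-test), and the tissues together for the interaction and tissue contrast. Genes were called at 0.05 after Benjamini-Hochberg adjustment over all genes tested. The ± after a log2 value is its standard error. Exon lengths and overlaps came from a newer BDGP6 annotation. DESeq2 1.42.0 was an alternative. Scripts were tested on simulated data. A simulated log2 change of 1 was recovered in 45 of 106 genes in glands, 2 of 95 in discs and 1 of 94 for the interaction. The lack of calls in discs and in the interaction therefore does not show that changes of that size were absent. Members, lists and tests were chosen with earlier results of these data known.

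Named members were those called (up to 8 per direction by adjusted p), the 4 largest changes per direction at 5 CPM or more where fewer than 4 were called, the 4 highest and 4 lowest levels, and 1 to 3 genes per list. Replicate pairs had chi-squares of 22.3 to 1800 per degree of freedom, so none was an identical copy. The lowest value belonged to the mutant disc pair, and every other pair had at least 166. This measure cannot tell whether libraries came from separate pools of tissue. Promoter motifs were not analysed here.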

Additional observations from a re-analysis of the deposited data

How the results depend on the processing

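In salivary glands 3 members were called higher and 2 lower. Library totals as the scale, chosen after seeing the data, gave 1 lower, the model of all 4 groups gave 1 higher and 0 lower, and upper-quartile scaling gave 2 of each. Leaving out each library gave 1 to 3 higher and 1 to 2 lower. Without wild-type replicate 2 the shares of all genes called were 1.99% higher and 1.85% lower, against 5.71% and 4.94% in the main fit. The shares in the other fits without 1 library are not given, so these counts have no full background. In wing discs every setting called 0, but without wild-type replicate 3 the values of mRpL24 (-0.02), mRpL2 (-0.03) and mRpL14 (-0.11) changed sign, and without wild-type replicate 2 all 3 were 0.46. mRpL49 changed sign without wild-type replicate 2 (0.10), and was -0.55 without replicate 3. The interaction gave 1 higher and 1 lower with the exon-length offset, also added after seeing the data, and 0 in the other settings. In the tissue contrast, members called higher numbered 0 with library totals and 4 with the offset, and the median was -3.22 and -1.20. There, mRpS5 changed sign with library totals (-0.14). mRpL28 changed sign with RLE scaling and DESeq2 (0.27 each), wild-type libraries only (0.06) and the offset (0.75), and over the fits without 1 library lay between -0.11 and 0.26. mRpL33 (0.63) and mRpL10 (0.50) changed sign with the offset, and without 1 library ran from -0.59 to 0.12 and from -0.56 to 0.00. The causes were not tested. No paired analysis was possible because the columns carry no replicate numbers shared between groups. Single members had down to 49 counts in a salivary library.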
